A study of Mus musculus with 2 samples.

Results

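Transcripts of 7 genes of the Notch pathway and of secretory cell fate were followed through single-cell profiles of the embryonic mouse small intestine: the ligand genes Dll1, Dll4 and Jag1, the receptor gene Notch1, the target genes Hes1 and Nrarp, and Atoh1. The genes were chosen by name, and all 7 were found among the 25663 genes of the deposited table. The cells were sorted small intestine epithelium of E18.5 embryos, fixed in methanol and profiled with 10x Genomics 3′ chemistry, which reads transcripts near their 3′ end. Each captured molecule receives 1 tag for its cell, the barcode, and 1 for itself, the UMI (unique molecular identifier). The study set 1 Tet3 knockout library against 1 Control library. Tet3 encodes an enzyme that oxidises methylated cytosine in DNA. For the Tet3 knockout, exon 5 was excised in stem cells of (C57BL6/J x C3H/HeJ)F1 embryos, which leaves a premature stop codon in exon 6, and the allele was passed on through the germ line. The Control library is of wild-type embryos. Every library was a pool of cells from 2 embryos, and both groups had the strain label C57BL6/J, from a line crossed back to C57BL6/JRccHsd for at least 5 generations. The labels name no other agent or allele in either group.

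Both libraries were deposited as 1 table of 11871 cells, whose barcodes end in -0 in 5933 cells (set 0) and in -1 in 5938 cells (set 1). Which ending belongs to which genotype is not given in the labels, so Tet3 knockout and Control were not compared. Tet3 stood at 0.329 summed UMIs per 10000 in set 0 (0.320 to 0.338) and 0.215 in set 1 (0.207 to 0.223). Tags near the 3′ end do not read the deleted exon itself, and no genotype was assigned from this level. Among the cells of set 1, 818 repeated a barcode of set 0, and values of set 1 are given without them (5120 cells). The 818 cells had a median of 13597 UMIs, against 51369 UMIs in the set 0 cells with the same barcodes. Values are in CP10K, the authors' signal scaled so that every cell sums to 10000. The median cell held 22382 UMIs, recovered as described under processing, and set 0 had a median of 23657 UMIs against 22375 UMIs in set 1. Epcam, an epithelial surface gene, averaged 13.1 CP10K and Vil1, a brush border gene, 2.77 CP10K over all cells. Cells are not replicates and there was 1 library per genotype, so no p-value was computed. Intervals are 95% intervals of counting error only, and a difference is described here by its size and by whether that interval leaves out a ratio of 1.

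Notch signalling passes between touching cells. A ligand of the Delta or Jagged family on one cell binds a Notch receptor on its neighbour, the receptor is cleaved, and its freed inner part joins the DNA-binding protein RBPJ to switch on target genes such as Hes1 and Nrarp. In the intestine, HES1 is known to repress Atoh1, the gene of the transcription factor that secretory cells (goblet, Paneth and enteroendocrine cells) need, and ATOH1 is known to raise Delta ligands, so that a secretory cell keeps its neighbours in the absorptive lineage. NRARP is known to dampen Notch signalling as a feedback regulator.

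The stretches of 250 bases before the start sites of Atoh1, Dll4 and Dll1 are shown because these 3 genes had the largest ratios in the cells with secretory markers. Sequences are from RefSeq (GRCm38.p6), on the gene's strand, 5′ to 3′. Capitals mark the letters CAGCTG, a form of the E-box that proteins of the Atoh1 family can bind.
Atoh1, chr6:64728875-64729124, plus strand: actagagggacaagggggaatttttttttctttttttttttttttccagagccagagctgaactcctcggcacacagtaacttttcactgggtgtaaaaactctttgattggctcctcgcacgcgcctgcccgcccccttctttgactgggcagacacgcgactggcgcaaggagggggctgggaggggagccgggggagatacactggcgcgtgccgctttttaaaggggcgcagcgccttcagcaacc
Dll4, chr2:119325534-119325783, plus strand: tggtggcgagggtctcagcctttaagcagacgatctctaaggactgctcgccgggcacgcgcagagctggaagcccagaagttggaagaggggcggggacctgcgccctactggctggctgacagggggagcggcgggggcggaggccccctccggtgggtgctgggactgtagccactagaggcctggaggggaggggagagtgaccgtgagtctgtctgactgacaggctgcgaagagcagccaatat
Dll1, second of 2 start sites in the table, chr17:15376933-15377182, minus strand: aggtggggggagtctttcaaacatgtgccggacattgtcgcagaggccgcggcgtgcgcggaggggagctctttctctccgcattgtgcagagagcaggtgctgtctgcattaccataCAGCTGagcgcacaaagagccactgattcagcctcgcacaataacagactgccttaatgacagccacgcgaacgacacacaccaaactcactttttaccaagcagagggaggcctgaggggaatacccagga
CAGCTG was present in the stretch of Dll1 shown, was absent from the stretch before the other Dll1 start site, was present in that of Jag1, and was present on either strand in 4271 of all 32851 such stretches (13%). The letters GTGGGAA, read by RBPJ, had no match on either strand in the stretches of Nrarp, Notch1, Jag1, Dll1, Dll4 and Atoh1, and were present in 5.42% of all stretches. CACNAG, a form of the N-box that HES proteins can bind, had 2 matches in the stretch of Nrarp, 1 in that of Notch1 and 1 in that of Dll4, and was present in 36.7% of all stretches. These matches describe letters only, and no binding was measured.

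In GRCm38 with the GENCODE M21 annotation, Hes1 lies on chromosome 16 at 30064384 to 30067796, Atoh1 on chromosome 6 at 64729125 to 64731245 and Dll1 on chromosome 17 at 15367354 to 15376872. The other 4 lie on chromosome 2, with Nrarp at 25180758 to 25183339, Notch1 at 26457903 to 26516663, Dll4 at 119325784 to 119335962 and Jag1 at 137081456 to 137116644. Notch1, Dll1, Dll4 and Nrarp each overlap a gene on the other strand that the table also holds. Whether counting used strand is not given in the sources used here, so reads of the overlapping parts cannot be told apart. The overlaps of Notch1 and Nrarp take in the 3′ end of these genes, near which the chemistry reads. Those of Dll4 and Dll1 lie at the 5′ end, away from it. The partner of Dll4, Gm14207, averaged 0.0128 CP10K, above the 0.0050 CP10K of Dll4 itself, and the partners of Notch1 (0610009E02Rik, 0.0141 CP10K), Dll1 (A930024N18Rik, 0.0028 CP10K) and Nrarp (Gm38287, 0.0015 CP10K) were below the genes they overlap.

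Over all cells, the target genes were the most abundant of the 7 and Dll4 the least. Summed UMIs per 10000 stood at 0.417 for Hes1, 0.169 for Nrarp, 0.0631 for Dll1, 0.0464 for Notch1, 0.0189 for Jag1, 0.0067 for Atoh1 and 0.0037 for Dll4. These are counts of 3′ tags, which do not grow with gene length, and no 2 neighbours in this order had overlapping Poisson intervals (Atoh1 0.0059 to 0.0077, Dll4 0.0030 to 0.0044). Mean CP10K over cells kept the same order, with 0.428 for Hes1 and 0.0050 for Dll4. Hes1 had 12673 UMIs and a UMI in 54.0% of cells, or in 26.1% after every cell was thinned to 8000 UMIs. Atoh1 had 205 UMIs in 118 cells and Dll4 111 UMIs in 82 cells. A UMI of Jag1, Notch1 or Dll1 was mostly a single one, since 91.6%, 88.5% and 87.9% of their positive cells held 1 UMI.

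Cells were grouped 4 times, by whether the summed value of marker genes reached 10 CP10K. Mki67 and Top2a, made by dividing cells, gave 96 cells at or above 10. Fabp1, a fatty acid binding protein of enterocytes, gave 8944 cells. Chga and Chgb, the chromogranins of enteroendocrine granules, gave 35 cells. Muc2, Fcgbp and Spink4, products of goblet cells, gave 213 cells. Cells at or above 10 are called high and the others low. The groups overlap: 109 of the 213 Muc2+Fcgbp+Spink4-high cells and 23 of the 35 Chga+Chgb-high cells were also Fabp1-high, and 10 Mki67+Top2a-high cells were also Muc2+Fcgbp+Spink4-high. No cells were removed as doublets.

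Cells rich in goblet cell transcripts held most of the Atoh1 and were the cells in which Dll4 and Dll1 were high together with it. Of the 213 Muc2+Fcgbp+Spink4-high cells, 127 were in set 0 and 55 in set 1. In this comparison 3 of the 7 genes (Atoh1, Dll4, Dll1) were 2-fold or more higher, where 8.24% of 14965 genes with at least 100 UMIs were. One of the 7, Jag1, was 2-fold or more lower, where 0.842% of genes were. Log2 ratios here are of mean CP10K with 0.01 added to both means.

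Atoh1 averaged 0.564 CP10K in Muc2+Fcgbp+Spink4-high cells and 0.0022 CP10K in low cells of set 0. In set 1 it averaged 1.01 CP10K in high cells and 0.0015 CP10K in low cells. High cells stood far above low cells in both sets. With the shared barcodes, whose cells set 0 kept, high cells of set 1 averaged 0.678 CP10K. The 1.01 and 0.564 CP10K are therefore not on like terms, and the same holds for the set levels of Dll4 and Dll1 below. Over all cells Atoh1 averaged 0.610 CP10K in high and 0.0018 CP10K in low cells (log2 ratio 5.71), and the ratio of summed UMIs was 159.5 (117 to 221). The high cells were 1.79% of all cells and held 149 of the 205 Atoh1 UMIs (72.7%). Thinning left out 27 of the 213 high cells as too shallow, of 84 cells left out in all. After thinning, 17.2% of the other high cells (12.1% to 23.4%) and 0.103% of low cells (0.0535% to 0.181%) had an Atoh1 UMI, and without thinning 36.6% and 0.343% did. Cells high for Fabp1 alone had an Atoh1 UMI in 0.0799% (7 of 8764 thinned cells, median 23443 UMIs per cell), which was taken as the background of cells that should lack the gene, while the 213 high cells had a median of 17261 UMIs.

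Dll4 averaged 0.0952 CP10K in high and 0.0029 CP10K in low cells of set 0. In set 1 it averaged 0.249 CP10K in high and 0.0025 CP10K in low cells. The sets had the same direction. Over all cells the levels were 0.126 CP10K in high and 0.0028 CP10K in low cells, a log2 ratio of 3.41, with 36 of the 111 Dll4 UMIs in the high cells. The ratio of summed UMIs was 28.8 (18.8 to 43.4), and after thinning 5.91% of high and 0.164% of low cells had a Dll4 UMI.

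Dll1 averaged 0.266 CP10K in high and 0.0580 CP10K in low cells of set 0. In set 1 it averaged 0.686 CP10K in high and 0.0646 CP10K in low cells. Dll1 was therefore higher in the high cells of both sets, but unlike Atoh1 and Dll4 it had a sizeable level outside them. Over all cells it averaged 0.341 CP10K in high and 0.0616 CP10K in low cells (log2 ratio 2.30), the ratio of summed UMIs was 2.82 (2.24 to 3.50), and 12.4% of high and 4.40% of low cells had a UMI after thinning. Of the 1666 cells with a Dll1 UMI, 54 were Muc2+Fcgbp+Spink4-high.

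Jag1, the third ligand, went the other way. It had 1 UMI in the 213 high cells and 574 UMIs in the low cells, a ratio of 0.104 (0.0026 to 0.584). That UMI was in set 1, where the ratio was 0.453 (0.0114 to 2.54), and set 0 had 0 UMIs, where the interval reached up to 0.667. For Hes1 and Notch1 a difference was not resolved. Hes1 averaged 0.386 CP10K in high and 0.429 CP10K in low cells, with a ratio of summed UMIs of 0.947 (0.818 to 1.09). Notch1 averaged 0.0280 CP10K in high and 0.0473 CP10K in low cells, with a ratio of 0.775 (0.458 to 1.23). The interval of Notch1 reaches past a 2-fold lower level. Nrarp averaged 0.220 CP10K in high and 0.172 CP10K in low cells, with a ratio of 1.33 (1.09 to 1.602), but without the shared barcodes it averaged 0.179 CP10K in high and 0.173 CP10K in low cells, with a ratio of 1.21 (0.976 to 1.49).

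Shared barcodes were a larger part of this group than of set 1 as a whole. Of the 86 high cells of set 1, 31 (36.0%) had a barcode that set 0 also held, against 13.8% of all set 1 cells, and in every one of the 31 the set 0 cell with that barcode was Muc2+Fcgbp+Spink4-high too. The 31 cells held 4 Atoh1 UMIs and 2 Dll1 UMIs, against 63 and 36 UMIs in the other 55 high cells of set 1. Nrarp stood at 0.457 CP10K in the 31 cells.

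Goblet markers, some of which chose the cells, summed to 148 CP10K in high and 0.575 CP10K in low cells. Paneth cell markers (7 measured) summed to 19.8 CP10K in high and 0.0511 CP10K in low cells, so the group held Paneth transcripts too. The part that a mixture of these cell types has in the levels above was not tested. Of the 10 endothelial markers 8 were at 0 in the high cells, among them Pecam1 and Cdh5, and of the 11 mesenchymal markers 8 were at 0, among them Col1a1 and Col3a1.

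**Figure D1:**
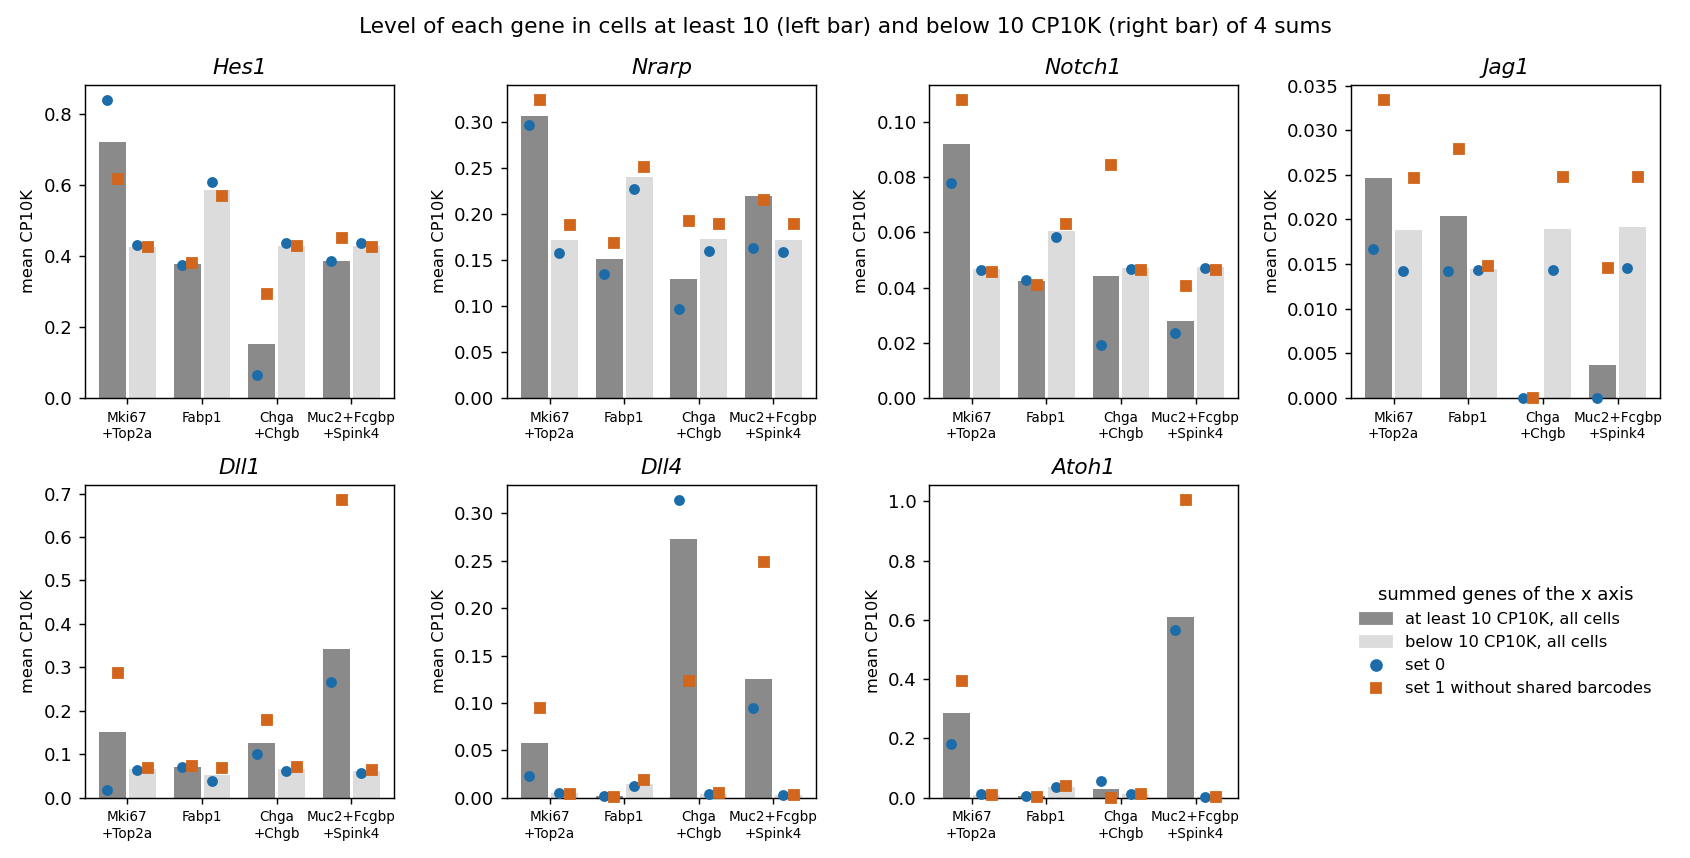
Mean level of each of the 7 genes (CP10K, linear axis from 0) in cells at or above 10 CP10K (dark bars, left) and below 10 CP10K (light bars, right) of each marker sum, over all cells. Points are the means of set 0 (circles) and of set 1 without shared barcodes (squares); Atoh1 stands at 0.610 CP10K in Muc2+Fcgbp+Spink4-high and 0.0018 CP10K in low cells, and Dll4 at 0.272 CP10K in Chga+Chgb-high and 0.0042 CP10K in low cells.

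Within the 213 cells the levels of the 3 genes varied with the other markers. In the 104 cells below 10 CP10K of Fabp1, Atoh1 averaged 0.865, Dll4 0.236 and Dll1 0.484 CP10K. In the 109 cells that were also Fabp1-high they averaged 0.367, 0.0203 and 0.205 CP10K. All 3 were lower in the Fabp1-high cells. By division markers they parted: in the 67 cells with a UMI of Mki67 or Top2a, Atoh1 averaged 0.750 CP10K and Dll4 0.172 CP10K, above the 0.546 and 0.105 CP10K of the 146 cells without one, while Dll1 averaged 0.208 CP10K in cells with and 0.402 CP10K in cells without such a UMI. A UMI of Mki67 or Top2a is also more often found in deeper cells, and the part of depth in this split was not tested.

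In cells with chromogranin transcripts, Dll4 was the gene that stood out, and Atoh1, with 1 UMI in the high cells, could not be placed. The 35 Chga+Chgb-high cells (19 in set 0, 14 in set 1) were shallow, with a median of 9220 UMIs, and 13 of them fell below 8000 UMIs. Of the 7 genes 1 (Dll4) was 2-fold or more higher, where 22.8% of 14966 genes were. Lower by 2-fold or more were 2 (Hes1, Jag1), where 14.0% of genes were. Jag1 had 0 UMIs in the high cells, and genes at 0 there are counted in the 14.0% in the same way. The 7 genes thus passed 2-fold no more often upward than genes in general did.

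Dll4 averaged 0.314 CP10K in Chga+Chgb-high and 0.0038 CP10K in low cells of set 0. In set 1 it averaged 0.123 CP10K in high and 0.0048 CP10K in low cells, from 2 UMIs in the high cells (ratio 33.4, 3.90 to 129.7). Mean levels were higher in the high cells of both sets. After thinning, which left out 7 of the 14 high cells of set 1, 0% of high and 0.217% of low cells there had a Dll4 UMI. So few high cells could not show a share as low as that of the low cells, so no direction is read from this 0%. Over all cells the levels were 0.272 CP10K in high and 0.0042 CP10K in low cells (log2 ratio 4.31), from 10 UMIs in 7 of the 35 cells, and the ratio of summed UMIs was 57.5 (26.8 to 110.2). Without shared barcodes 8 UMIs remained, with a ratio of 48.5 (20.4 to 99.5). Dll1 had 7 UMIs in high cells, with a ratio of 2.13 (0.856 to 4.40), and Atoh1 had 1 UMI, with a ratio of 2.85 (0.0718 to 16.1).

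Hes1 averaged 0.0650 CP10K in Chga+Chgb-high and 0.436 CP10K in low cells of set 0. In set 1 it averaged 0.292 CP10K in high and 0.427 CP10K in low cells. Mean levels were below those of low cells in both sets, by more in set 0, but the ratio of summed UMIs was 0.329 (0.0896 to 0.842) in set 0 and 1.37 (0.706 to 2.39) in set 1, and after thinning 42.9% of high and 26.4% of low cells of set 1 had a Hes1 UMI. The direction in set 1 thus turned with the measure. Over all cells Hes1 averaged 0.152 CP10K in high and 0.429 CP10K in low cells (log2 ratio -1.44), from 16 UMIs in 7 of the 35 cells. The ratio of summed UMIs, which gives deeper cells more weight, was 0.735 (0.420 to 1.19), so the difference was not resolved on that scale. Jag1 had 0 UMIs in the high cells, where the 3 counts that a 0 allows would be a level 3.03 times that of the low cells, so no fold is given. Nrarp (8 UMIs, ratio 0.908, 0.392 to 1.79) and Notch1 (3 UMIs, ratio 1.24, 0.255 to 3.63) could not be placed.

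Endocrine genes that did not choose the cells were high in them. Neurod1 averaged 2.66 CP10K in high and 0.0016 CP10K in low cells, and Neurog3, the transcription factor of endocrine precursors, 1.15 CP10K in high and 0.0101 CP10K in low cells. Of the 9 goblet markers, Muc2, Clca1, Spdef and Gfi1 were at 0 in the high cells, and the sum of all 9 was 19.4 CP10K in high and 3.18 CP10K in low cells. Neural markers, which endocrine cells share in part, summed to 1.30 CP10K in high and 0.155 CP10K in low cells. Of the 11 mesenchymal markers 9 and of the 10 endothelial markers 7 were at 0.

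Cells with many division transcripts held more Hes1 and Nrarp. Of the 7 genes 3 (Atoh1, Dll4, Dll1) were 2-fold or more higher in the 96 Mki67+Top2a-high cells, where 16.7% of 14966 genes were, and none was 2-fold or more lower, where 10.9% were. A median of 0.16 for the log2 ratio of all genes goes with this comparison.

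Hes1 averaged 0.840 CP10K in Mki67+Top2a-high and 0.432 CP10K in low cells of set 0, and 0.618 CP10K in high and 0.425 CP10K in low cells of set 1. Nrarp averaged 0.297 CP10K in high and 0.158 CP10K in low cells of set 0, and 0.324 CP10K in high and 0.188 CP10K in low cells of set 1. Both targets were higher in the high cells of both sets. Over all cells Hes1 had a log2 ratio of 0.75, with a ratio of summed UMIs of 1.75 (1.48 to 2.06), and Nrarp had a log2 ratio of 0.80, with a ratio of 1.93 (1.49 to 2.47). After thinning, 42.2% of high and 26.0% of low cells had a Hes1 UMI, and 22.2% of high and 12.8% of low cells had a Nrarp UMI. Notch1 averaged 0.0919 CP10K in high and 0.0466 CP10K in low cells with a ratio of 1.94 (1.15 to 3.08), although after thinning 3.33% of high and 3.67% of low cells had a UMI, so no order is read from it.

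Atoh1, Dll4 and Dll1 in this group rested on few cells. Atoh1 averaged 0.284 CP10K in high and 0.0105 CP10K in low cells (log2 ratio 3.84), from 30 UMIs in 9 cells, and 24 of these UMIs were in the 10 cells that were also Muc2+Fcgbp+Spink4-high. In the other 86 cells Atoh1 averaged 0.0356 CP10K. Among these, the 70 cells high for no other marker sum held 6 Atoh1 UMIs in 2 cells, 5 of them in 1 cell. Without that cell Atoh1 averaged 0.0044 CP10K in the 70 cells. Dll4 averaged 0.0579 CP10K in high and 0.0046 CP10K in low cells, from 7 UMIs, 5 of them in those 10 cells, and its log2 ratio of 2.22 became 1.04 without the highest cell. Dll1 averaged 0.0187 CP10K in high and 0.0628 CP10K in low cells of set 0, and 0.288 CP10K in high and 0.0693 CP10K in low cells of set 1. The sets thus pointed opposite ways, and in the 70 cells high for no other marker sum Dll1 averaged 0.0141 CP10K. Over all cells its ratio of summed UMIs was 1.43 (0.843 to 2.26), and its log2 ratio of 1.08 became 0.37 without the highest cell. In the 915 cells that reached a lower threshold of 2 CP10K, the log2 ratios were -0.54 for Dll1, 0.89 for Dll4 and 1.65 for Atoh1, and 0.93 for Hes1 and 0.91 for Nrarp. Jag1 had 4 UMIs in the 96 cells, with a ratio of 1.05 (0.286 to 2.71).

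Markers of other cells moved with this group. Mesenchymal markers (11 measured, none at 0) summed to 6.13 CP10K in Mki67+Top2a-high and 0.168 CP10K in low cells, and 4 of the 96 cells held 5 CP10K or more of them. Without all 29 cells of the table that held 5 CP10K or more of mesenchymal, endothelial or erythroid markers, the mesenchymal sum of the high cells was 0.0274 CP10K, and the log2 ratios were 0.67 for Hes1, 0.86 for Nrarp, 0.90 for Notch1, 2.28 for Dll4 and 3.90 for Atoh1. The ratios were therefore of like size without those cells. Goblet markers summed to 23.8 CP10K in high and 3.06 CP10K in low cells and Paneth markers to 4.41 CP10K in high and 0.372 CP10K in low cells, and their part in the ratios of Hes1 and Nrarp was not tested.

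**Figure D2:**
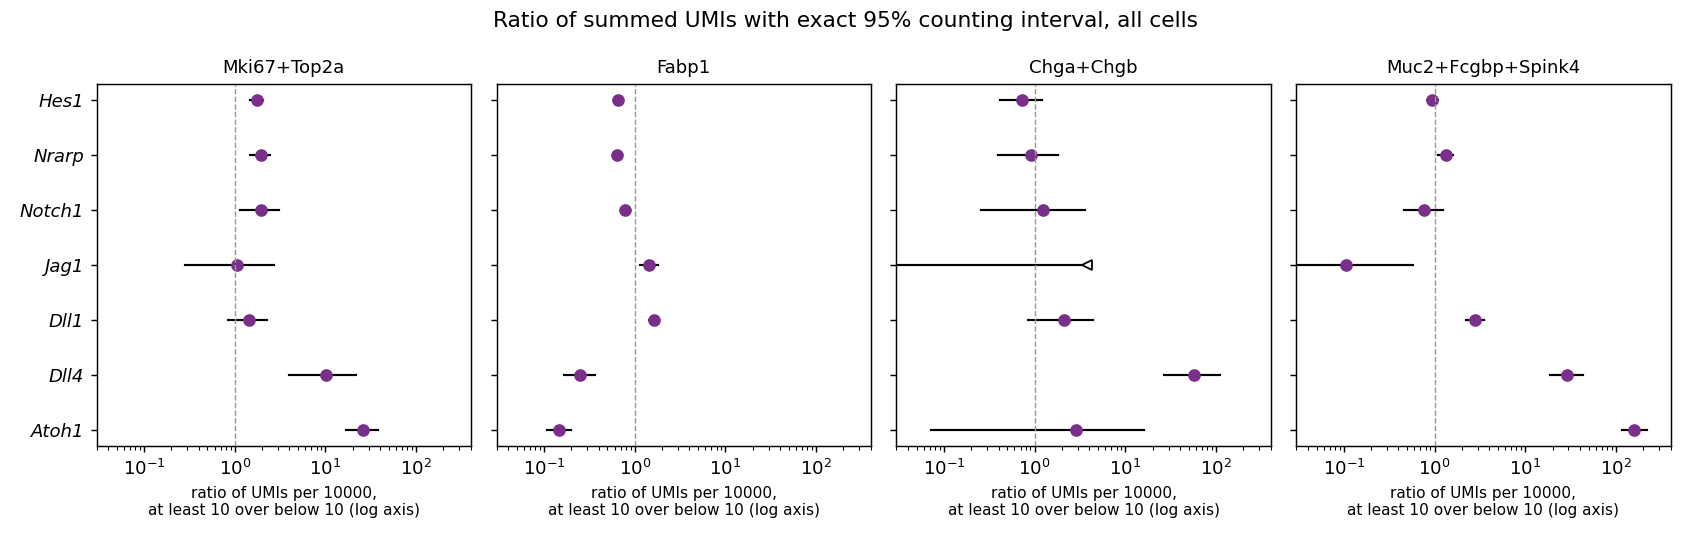
Ratio of summed UMIs per 10000 (log axis), high over low cells, for each gene and each of the 4 marker sums, over all cells. Lines are exact 95% intervals of counting error, the dashed line is a ratio of 1, and the open triangle marks the upper end of the interval for Jag1 with 0 UMIs. Lines for Jag1 in the 2 right panels run past the left edge; Atoh1 lies at 159.5 for Muc2+Fcgbp+Spink4 and at 0.146 for Fabp1.

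Fabp1-high cells differed from Fabp1-low cells in both directions: the targets, the receptor, Dll4 and Atoh1 were lower, and Dll1 and Jag1 were higher. For Jag1 this was resolved in set 1 and not in set 0. None of the 7 was 2-fold or more higher, where 3.09% of 14967 genes were, and 2 (Dll4, Atoh1) were 2-fold or more lower, where 8.67% of genes were. The median log2 ratio of all genes was -0.19. Markers of other cells moved with this split. Division markers (12 measured) summed to 2.73 CP10K in Fabp1-high and 11.9 CP10K in low cells, goblet markers to 1.75 CP10K in high and 7.73 CP10K in low cells, and Paneth markers to 0.207 CP10K in high and 1.01 CP10K in low cells. Their part in the lower Hes1, Nrarp, Dll4 and Atoh1 was not tested.

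Hes1 averaged 0.375 CP10K in Fabp1-high and 0.608 CP10K in low cells of set 0, and 0.381 CP10K in high and 0.570 CP10K in low cells of set 1. Nrarp averaged 0.135 CP10K in high and 0.228 CP10K in low cells of set 0, and 0.169 CP10K in high and 0.251 CP10K in low cells of set 1. The direction was shared by both sets. Over all cells the log2 ratios were -0.63 for Hes1 and -0.63 for Nrarp, with ratios of summed UMIs of 0.660 (0.635 to 0.686) for Hes1 and 0.641 (0.604 to 0.681) for Nrarp. Hes1 was still found in 24.3% of Fabp1-high cells after thinning, against 31.8% of low cells. Notch1 averaged 0.0426 CP10K in high and 0.0606 CP10K in low cells, with a ratio of 0.788 (0.699 to 0.890).

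Dll1 averaged 0.0708 CP10K in Fabp1-high and 0.0386 CP10K in low cells of set 0, and 0.0724 CP10K in high and 0.0676 CP10K in low cells of set 1. The difference was thus much smaller in the mean levels of set 1, whose low cells held more. Over all cells the ratio of summed UMIs was 1.64 (1.44 to 1.86), and 5.10% of high and 2.79% of low cells had a Dll1 UMI after thinning. Jag1 averaged 0.0142 CP10K in high and 0.0143 CP10K in low cells of set 0, and 0.0279 CP10K in high and 0.0148 CP10K in low cells of set 1. A difference in Jag1 was therefore seen in set 1, where the ratio of summed UMIs was 1.79 (1.29 to 2.54), and not resolved in set 0, where it was 1.08 (0.792 to 1.51). The difference between the sets was not tested.

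Along Fabp1 itself, Hes1 and Nrarp went down where Dll1 went up. Cells below 10 CP10K of the other 3 marker sums were placed in 5 ranges of Fabp1, with 533, 2208, 1332, 2846 and 4620 cells from the lowest to the highest. Hes1 averaged 0.525, 0.603, 0.487, 0.390 and 0.337 CP10K across these ranges. Dll1 averaged 0.0369, 0.0360, 0.0514, 0.0614 and 0.0783 CP10K. Hes1 was thus highest in the second range, from 2 to 10 CP10K of Fabp1, and Dll1 in the range of 200 CP10K or more. Nrarp averaged 0.224, 0.241, 0.174, 0.162 and 0.137 CP10K, and Notch1 0.0842, 0.0546, 0.0399, 0.0431 and 0.0433 CP10K. From the second to the highest range the order of Hes1, Nrarp and Dll1 was the same in both sets, while Hes1 in the lowest range averaged 0.605 CP10K in set 0 and 0.482 CP10K in set 1. The thinned share of cells with a Dll1 UMI was 3.04% in the lowest, 2.31% in the second and 6.13% in the highest range. Jag1 averaged 0.0165 CP10K in set 0 and 0.0329 CP10K in set 1 in the range from 50 to 200 CP10K, its highest in set 1. Atoh1 and Dll4 stayed at or under 0.0077 and 0.0046 CP10K in all 5 ranges over both sets.

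**Figure D3:**
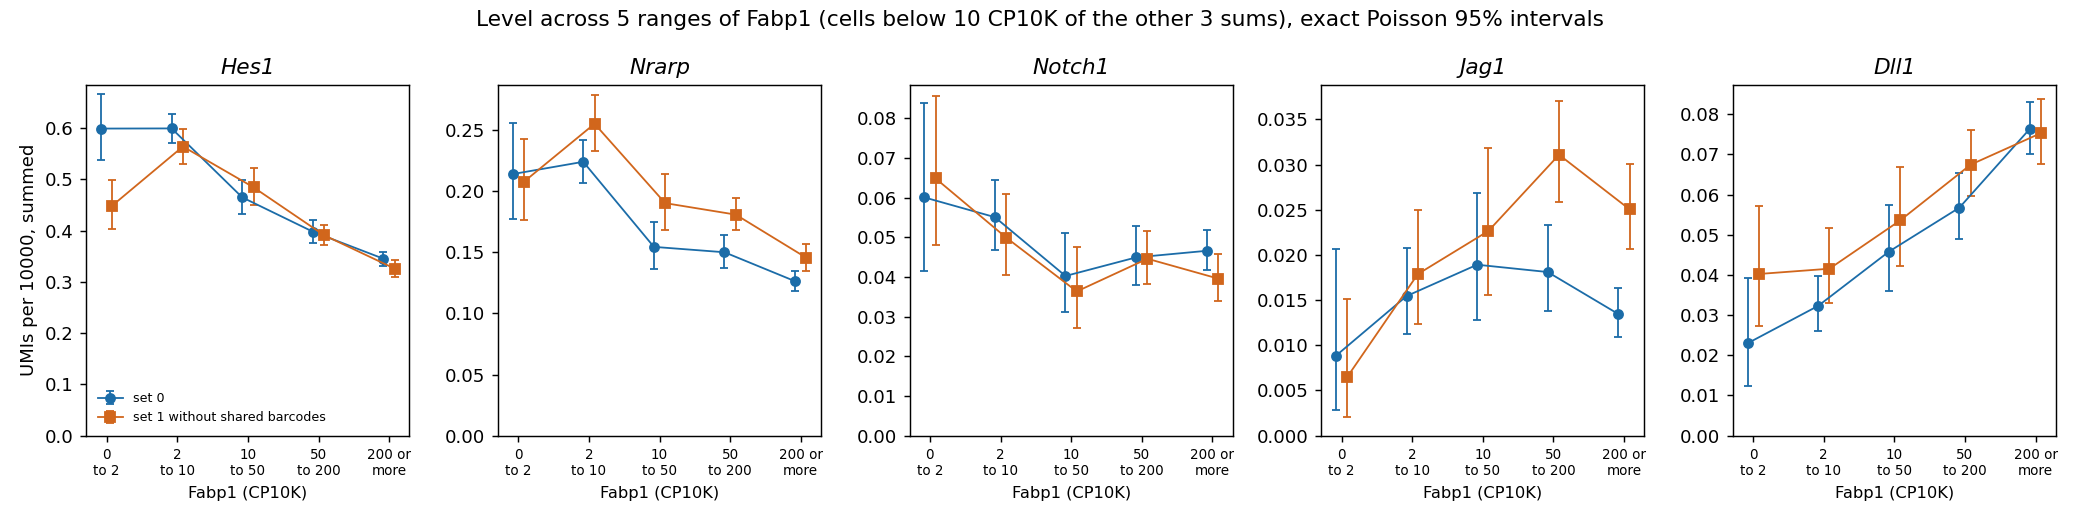
Summed UMIs per 10000 of Hes1, Nrarp, Notch1, Jag1 and Dll1 (linear axes from 0) across 5 ranges of Fabp1 level, in cells below 10 CP10K of the other 3 marker sums, for set 0 (circles) and set 1 without shared barcodes (squares). Bars are exact Poisson 95% intervals; in mean CP10K over both sets, Hes1 stands at 0.603 in the second and 0.337 in the highest range, and Dll1 at 0.0360 and 0.0783.

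Most cells with a Dll1 transcript were not cells with goblet markers, and 83.6% of the 1666 cells with a Dll1 UMI were high for Fabp1 alone, a group that made up 74.1% of all cells. Atoh1 was not found beside Dll1 in cells outside the goblet marker group. After thinning, 511 Muc2+Fcgbp+Spink4-low cells had a Dll1 UMI and 0 of them had an Atoh1 UMI (0 to 0.719%), against 12 of the 11090 low cells without Dll1 (0.108%). With so few Atoh1 UMIs outside the group, no difference between these shares was detectable at this depth.

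Cells with an Atoh1 UMI more often had a Delta ligand UMI. After thinning, 44 cells had an Atoh1 UMI and 11743 did not. A Dll1 UMI was found in 10 of the 44 Atoh1-positive cells (22.7%, 11.5% to 37.8%) and in 4.46% of the Atoh1-negative cells (4.10% to 4.85%). In set 0 the shares were 17.4% of 23 Atoh1-positive and 4.27% of Atoh1-negative cells, and in set 1 they were 37.5% of 16 Atoh1-positive and 4.66% of Atoh1-negative cells. Both sets had the higher share in Atoh1-positive cells. A Dll4 UMI was found in 7 of the 44 cells (15.9%, 6.64% to 30.1%) and in 0.196% of Atoh1-negative cells. Hes1 was found in 22.7% of Atoh1-positive (11.5% to 37.8%) and 26.1% of Atoh1-negative cells, and Nrarp in 9.09% (2.53% to 21.7%) and 12.9%, so a lower share of either target was not resolved. Jag1 was found in 0 of the 44 cells, which allows a share of up to 8.04%.

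Part of this goes with the cell group, since 32 of the 44 cells were Muc2+Fcgbp+Spink4-high. Within that group a Dll1 UMI was found in 10 of 32 Atoh1-positive cells (31.3%, 16.1% to 50.01%) and in 13 of 154 Atoh1-negative cells (8.44%, 4.57% to 14.0%), and a Dll4 UMI in 15.6% of Atoh1-positive (5.28% to 32.8%) and 3.90% of Atoh1-negative cells (1.44% to 8.29%). The intervals for Dll1 did not overlap and those for Dll4 did. Hes1 was found there in 18.8% of Atoh1-positive (7.21% to 36.4%) and 26.0% of Atoh1-negative cells (19.2% to 33.6%). All thinned cells have the same depth, but before thinning the Atoh1-positive cells had a median of 16842 UMIs against 22456 UMIs in the others.

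**Figure D4:**
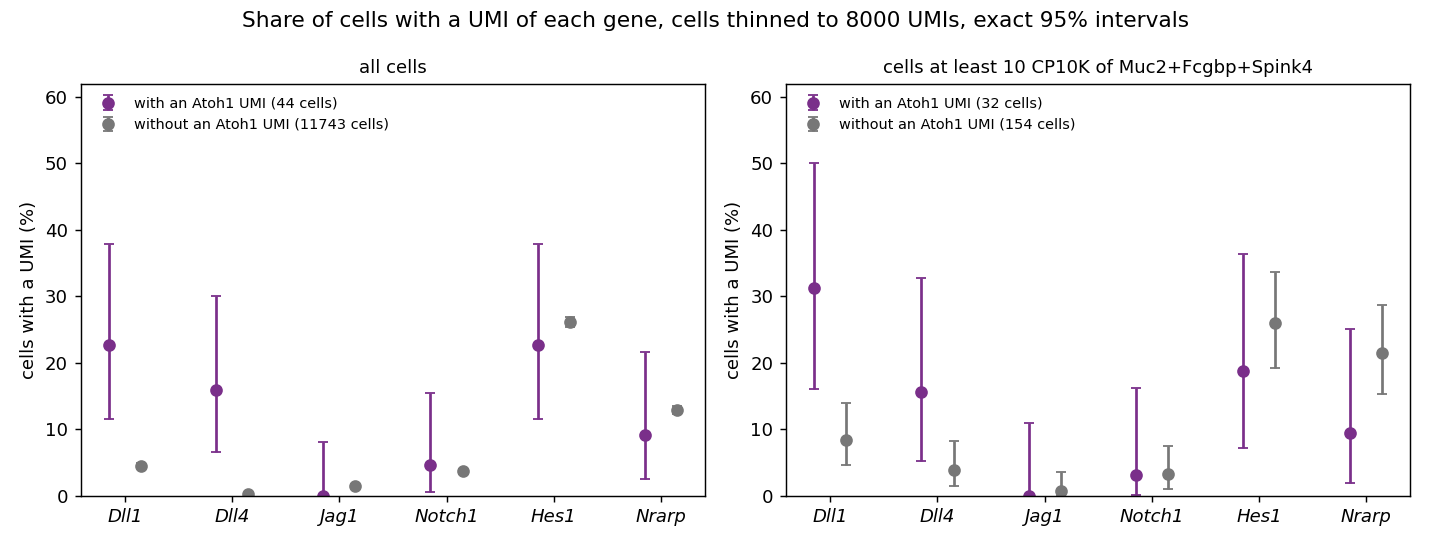
Share of cells with a UMI (%, linear axis from 0) of the 6 other genes in cells with (left points) and without (right points) an Atoh1 UMI, after thinning to 8000 UMIs, in all cells and in Muc2+Fcgbp+Spink4-high cells. Lines are exact Clopper-Pearson 95% intervals; Dll1 stands at 22.7% and 4.46% in all cells and at 31.3% and 8.44% in Muc2+Fcgbp+Spink4-high cells.

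One barcode held a large part of some counts. It had 250630 UMIs, the most in the table, was in set 0 and held 13 of the 111 Dll4 UMIs, 15 Notch1 UMIs (the next cell had 3) and 14 Nrarp UMIs (the next had 7). The same barcode held 169 UMIs of Plvap, 64 of Kdr and 35 of Cdh5, which are endothelial genes, 1362 of Hbb-bs, a haemoglobin gene of red cells, and 1534 of Fabp1 and 85 of Epcam, which are epithelial. Over the 82 cells with a Dll4 UMI the 10 endothelial markers summed to 1.04 CP10K, against 0.113 CP10K in cells without one. Without the 29 cells that held markers of other cell types the sum was 0.178 CP10K over the Dll4-positive cells, and the log2 ratio of Dll4 in Muc2+Fcgbp+Spink4-high over low cells was 3.42, against 3.41 with them. None of the 118 Atoh1-positive cells was among the 29.

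Between the sets, Jag1 and Nrarp were lower in set 0. Jag1 averaged 0.0143 CP10K in set 0 and 0.0247 CP10K in set 1, with a ratio of summed UMIs of 0.612 (0.515 to 0.726). Nrarp averaged 0.159 CP10K in set 0 and 0.189 CP10K in set 1, with a ratio of 0.850 (0.803 to 0.899). Hes1 had a ratio of 1.04 (1.0039 to 1.08), and the intervals of Notch1, Dll1, Dll4 and Atoh1 included 1. Each set may be 1 library, so library preparation, embryos and genotype cannot be told apart in these ratios.

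Genes of the pathway were taken from 9 lists. These lists also hold the 7 genes described above, so counts and medians over a list include them. Of the secretory fate factors, 27 were listed and 12 had at least 100 UMIs, Atoh1 among them. Atoh1 is thus counted again with the higher genes for Muc2+Fcgbp+Spink4 and Mki67+Top2a, and with the lower genes for Fabp1. In Muc2+Fcgbp+Spink4-high cells 10 of these 12 were 2-fold or more higher, where 8.24% of all genes were, and 0 were lower. The median log2 ratio of the 12 was 2.99, against 0.13 over all genes. Spdef, a goblet and Paneth cell regulator that acts after Atoh1, averaged 1.37 CP10K in high and 0.0037 CP10K in low cells, and Creb3l4 0.384 CP10K in high and 0.0109 CP10K in low cells. In Chga+Chgb-high cells 5 of the 12 were 2-fold or more higher, where 22.8% of all genes were, and Spdef and Creb3l4 were at 0 in these cells. The largest ratios were those of Neurod1, Neurog3 and Foxa1 (0.405 CP10K in high, 0.0510 CP10K in low cells). In Mki67+Top2a-high cells 9 were higher, where 16.7% of all genes were, and 0 lower (median 1.96), among them Sox9, a crypt transcription factor, with 0.522 CP10K in high and 0.0578 CP10K in low cells. In Fabp1-high cells 0 were higher and 8 lower (median -1.52), where 8.67% of all genes were lower, among them Foxa3 with 0.0192 CP10K in high and 0.122 CP10K in low cells. Several of these factors, such as Spdef, are used to mark the same cells that the marker sums choose.

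All 10 stem cell genes had at least 100 UMIs. In Mki67+Top2a-high cells 10 of the 10 were 2-fold or more higher (median log2 ratio 2.49), where 16.7% of all genes were. In Fabp1-high cells 10 were 2-fold or more lower (median -2.11), where 8.67% of all genes were. Sox9 is on this list and on that of the secretory fate factors. Olfm4, a gene of intestinal stem cells that Notch is known to support, averaged 0.0278 CP10K in Fabp1-high and 0.527 CP10K in low cells. Slc12a2 averaged 1.09 CP10K in Mki67+Top2a-high and 0.124 CP10K in low cells, and Smoc2 0.250 CP10K in high and 0.0210 CP10K in low cells. In Muc2+Fcgbp+Spink4-high cells 6 of the 10 were higher and 0 lower, where 8.24% and 0.842% of all genes were. Among the 6 was Prom1, with 0.266 CP10K in high and 0.0465 CP10K in low cells. In Chga+Chgb-high cells 5 were higher and 0 lower, where 22.8% and 14.0% of all genes were, among them Axin2, a target of Wnt signalling, with 0.0929 CP10K in high and 0.0225 CP10K in low cells.

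For genes of the pathway's machinery, counts in Chga+Chgb-high cells are read against a comparison in which 22.8% of all genes were higher and 14.0% lower. Of 5 ligand genes with enough UMIs, Jag2 averaged 0.185 CP10K in Chga+Chgb-high and 0.0296 CP10K in low cells, and Dlk1, a non-canonical ligand, 0.114 CP10K in high and 0.0097 CP10K in low cells. Dlk1 averaged 0.219 CP10K in Mki67+Top2a-high and 0.0083 CP10K in low cells, and mesenchymal markers were also higher in the high cells, as given above; their part in this was not tested. Of 10 genes of the nuclear complex, 5 were 2-fold or more higher and 0 lower in Chga+Chgb-high cells, among them Maml3, a co-activator of Notch, with 0.677 CP10K in high and 0.0647 CP10K in low cells, and Kat2b, an acetyltransferase, with 0.250 CP10K in high and 0.0752 CP10K in low cells. In Muc2+Fcgbp+Spink4-high cells 2 of the 10 were higher, where 8.24% of all genes were. Maml3 was among them, with 0.191 CP10K in high and 0.0642 CP10K in low cells. In Mki67+Top2a-high cells 2 of the 10 (Maml1, Maml3) were higher and 0 lower, a share near the 16.7% of all genes that were higher, and in Fabp1-high cells 0 were higher or lower by 2-fold. Mib1, the ubiquitin ligase that Delta ligands need in order to signal, averaged 0.752 CP10K in Chga+Chgb-high and 0.194 CP10K in low cells.

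Of 12 genes of receptor modification and cleavage, 0 were 2-fold or more higher in any of the 4 comparisons. In Mki67+Top2a-high cells 3 were 2-fold or more lower (Aph1b, Psen2, Furin), where 10.9% of all genes were. Aph1b, a gamma-secretase subunit, averaged 0.0448 CP10K in high and 0.163 CP10K in low cells. Psen2, a catalytic subunit, averaged 0.125 CP10K in high and 0.286 CP10K in low cells. Furin, a protease that matures the receptor, averaged 0.0797 CP10K in high and 0.184 CP10K in low cells. In Chga+Chgb-high cells 2 of the 12 were lower, a share near the 14.0% of all genes: Furin with 0.0636 CP10K in high and 0.184 CP10K in low cells, and Aph1b with 0.0701 CP10K in high and 0.162 CP10K in low cells. Of 7 inhibitors, Dtx4 averaged 0.0695 CP10K in Mki67+Top2a-high and 0.0284 CP10K in low cells, and 0.0210 CP10K in Fabp1-high and 0.0525 CP10K in low cells. Fbxw7, which marks the active receptor for decay, averaged 0.162 CP10K in Muc2+Fcgbp+Spink4-high and 0.0671 CP10K in low cells, and Dtx3 averaged 0.271 CP10K in Chga+Chgb-high and 0.0374 CP10K in low cells. Only 2 receptor genes and 3 Hes or Hey genes had at least 100 UMIs. No receptor gene reached 2-fold in any comparison, and of the Hes and Hey genes Hes1 in Chga+Chgb-high cells was the only one past 2-fold with a level of 0.05 CP10K or more.

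Across the 11871 cells, the genes whose values went most with Atoh1 were Tpsg1 (Pearson r = 0.68 of the natural log of 1 + CP10K), Sytl2 (0.66), Spdef (0.65), Ern2 (0.64) and Agr2 (0.63). For Dll4 they were Rab15 (0.40), Tox3 (0.38), Fxyd3 (0.37), Hepacam2 (0.35) and 5330417C22Rik (0.33). For Dll1 the highest was Spdef at 0.24, and for Hes1, Nrarp, Notch1 and Jag1 the highest were Ier2 at 0.25, Krt19 at 0.24, Slc12a2 at 0.11 and Mgst3 at 0.10. Among the 7 genes themselves Atoh1 and Dll4 had r = 0.27, Atoh1 and Dll1 0.17, Dll4 and Dll1 0.15, and Hes1 and Nrarp 0.10, while Hes1 with Atoh1 had -0.01. These values describe unthinned cells that share 2 sets and differ in depth, and in counts this sparse a low r is no finding.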

How the data were processed

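The deposited table holds 11871 cells by 25663 genes from 1 Tet3 knockout and 1 Control library. Its values are a linear signal, which the authors deposited scaled so that each cell sums to 10000. Per the submitters' processing notes, Salmon 0.14.1, alevin, Scanpy 1.6.0 and the builds GRCm38 and mm10 were used, and how cells were filtered is not given in the sources used here. Within a cell, 1 UMI was set to the commonest value above 0. Dividing by it gave whole numbers (within 0.01) for 94.9% of the values of the median cell and for all values of the 7 genes. Levels are means of CP10K over cells. Ratios of summed UMIs carry exact conditional 95% intervals, and shares carry exact Clopper-Pearson 95% intervals after thinning to 8000 UMIs (seed 0), which left out 84 cells. Log2 ratios have 0.01 added. A count of 0 was read as allowing 3 counts, and PCR copies are merged by UMI, so intervals cover counting error only. No test was made, because cells are no replicates.

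Genes with at least 100 UMIs made the background. Genes of the lists were named by rule: up to 3 highest and 3 lowest ratios per list past 2-fold with at least 0.05 CP10K, and up to 5 genes with r of 0.3 or more. One gene that the rule names is not reported here. The members and lists were chosen with earlier results of these data known. Alternatives were other thresholds, levels, thinning depths, cell filters, pseudocounts and each set alone. Threshold 2 and leaving out cells with 5 CP10K or more of mesenchymal, endothelial or erythroid markers were chosen after seeing the data. Interval and ratio code was tested on simulated data. Python 3.11.15, numpy 2.4.6, scipy 1.17.1, pandas 2.3.3 and matplotlib 3.10.9 were used.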

Additional observations from a re-analysis of the deposited data

How the results depend on the processing

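No paired analysis was possible because there was 1 library per genotype, the cells carry no genotype and no result comes from a test. Of 417 alternative values of single genes, 341 moved by no more than the log2 half-width of the main counting interval and 73 by more. Another 3, of genes whose main interval left out a ratio of 1, changed sign. At a threshold of 20, which 4 cells reached for Mki67 and Top2a, the log2 ratios of Notch1 and Dll4 were -2.51 and -0.59, 3 of the 7 genes had the higher level (7 at 10) and 2 the higher share (5 at 10). With set 0 alone the log2 ratio of Jag1 for Fabp1 was -0.0052, and 1 gene had the higher level and 1 the higher share (2 and 2 with both sets). For Chga+Chgb, 5 genes had the higher level at a threshold of 5 (3 at 10), and 2 had the higher share when thinned to 4000 UMIs or in set 1 alone (4 in the main values). For Muc2+Fcgbp+Spink4, 7 genes had the higher share in set 1 alone (4 with both sets). The share of Dll1-positive cells was 46.2% among the 13 cells with 2 or more Atoh1 UMIs, against 22.7%. The cause of these differences was not tested. Leaving out the 29 cells with markers of other cell types moved no log2 ratio past that half-width. Depth limits Dll4 and Atoh1 (111 and 205 UMIs) and every value of the 35 Chga+Chgb-high cells, and mean and summed levels part where depth varies within a group.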

Other observations

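The barcodes found in both sets were examined by marker group. Of 668 set 1 cells with a shared barcode that were Fabp1-high, 659 had a set 0 cell of the same barcode that was Fabp1-high too. For Chga+Chgb this held for 2 of 2 cells, for Mki67+Top2a for 1 of 1 and for Muc2+Fcgbp+Spink4 for 31 of 31. The Muc2+Fcgbp+Spink4-high cells with shared barcodes had a median of 12858 UMIs in set 1, against 49337 UMIs in the set 0 cells of the same barcodes. Without its 818 cells with shared barcodes, 1.07% of set 1 cells were Muc2+Fcgbp+Spink4-high, and with them 1.45%. The share was 2.14% in set 0, which kept its cells of the same barcodes. The 1.07% and 2.14% are therefore not on like terms.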
